A study of Mus musculus with 15 samples.

Results

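Transcript levels of 10 conventional dendritic cell genes, of 38315 genes in the deposited table, were compared between leukaemic and normal mouse bone marrow. The 10 rows were taken by gene symbol: Xcr1, Clec9a and Batf3 for type 1 cells, Clec10a, Cd209a and Irf4 for type 2 cells, Itgax and Zbtb46 for both types, Fscn1 for mature cells, and Itgae, an integrin gene. All are annotated as protein coding, Xcr1 on chromosome 9, Clec9a on 6, Batf3 on 1, Clec10a and Itgae on 11, Cd209a on 8, Irf4 on 13, Itgax on 7, Zbtb46 on 2 and Fscn1 on 5. The samples were 15 bulk total RNA libraries. Acute myeloid leukaemia (AML) marrow came from 7 mice of the NUP98-NSD1/FLT3-ITD genotype, which carry a fusion of the nucleoporin NUP98 with the histone methyltransferase NSD1 and a tandem duplication inside the receptor tyrosine kinase FLT3. Normal marrow came from wild-type mice, as 4 whole marrow samples and 4 lineage-negative samples, from which cells bearing antigens of mature lineages had been removed. How expression of the altered genes is driven, the ages of the mice and the share of blasts in each marrow are not given in the sources used here. The labels number the samples of a group, and the normal samples are not tied to named animals, so p-values measure the spread between these samples.

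Conventional dendritic cells take up antigen, present it on major histocompatibility complex (MHC) molecules and prime T cells. Type 1 cells depend on the transcription factors IRF8 and BATF3, take up dead cells and present their antigens to CD8 T cells, while type 2 cells depend more on IRF4 and present to CD4 T cells. Both arise from marrow progenitors under the cytokine FLT3 ligand, whose receptor is FLT3, and they are rare in normal marrow. In bulk marrow, more cells of a type and more RNA per cell cannot be told apart. Several of the genes are also transcribed in monocytes, macrophages, B cells or plasma cells.

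All values are normalized counts, that is, estimated reads per gene divided by a scaling factor of the library. Estimated depth was 20.3 to 35.1 M reads (M, mega) in AML, 11.4 to 17.2 M in whole marrow and 20.3 to 28.1 M in lineage-negative marrow, and 3 reads corresponded to 2.53 to 3.82, 2.69 to 4.09 and 1.96 to 2.72 normalized counts. Over the 18941 genes kept for testing, AML exceeded whole marrow by a median of 0.67 and lineage-negative marrow by 0.02 on the log2 scale, and lineage-negative marrow exceeded whole marrow by 0.59. Differences are therefore also given relative to that median, or after scaling by the trimmed mean of M values (TMM). Whole marrow also had a higher level of 1750 olfactory and vomeronasal receptor genes, which encode sensory receptors of the nose, with means of 6.31 to 11.9 against 0.325 to 0.462 in lineage-negative marrow and 0.404 to 3.34 in AML, where the 3.34 was replicate 6 and the next 1.15. The lineage-negative label was checked with the neutrophil gene S100a8, at 209 to 1807 there and 84328 to 257045 in whole marrow. AML replicate 3 was the highest AML library for all 10 dendritic cell genes. Each gene's differences in AML and each list's counts, with the deposited scaling, are also given below without it.

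Of the 10 genes, 9 were called higher in AML than in whole marrow and none lower, where a call is an adjusted p under 0.05 with a log2 difference of at least 1 (limma, Benjamini-Hochberg adjustment). Over all genes tested, 27.3% were called higher in this comparison and 11.3% lower. Against lineage-negative marrow 9 of the 10 were again called higher and none lower, beside 17.7% and 12.5% of all genes. The exception against whole marrow was Irf4 and against lineage-negative marrow Zbtb46, so 8 genes were called higher than both normal groups, as were 7.2% of all genes. Batf3 is among these 8 and was kept for testing only through its AML values. The median log2 difference of the 10 genes was 2.71 against whole marrow and 3.42 against lineage-negative marrow. With TMM scaling 7 genes were called against whole marrow, where 6.01% of all genes were called higher and 15.1% lower. Against lineage-negative marrow 9 were called with TMM scaling, where 17.5% of all genes were called higher. With limma's voom on estimated reads, an analysis added after the data were seen, 4 and 8 genes were called. Of the 18941 genes tested, 983 and 3252 were then called higher. Without AML replicate 3, 8 and 9 genes were called and the medians were 2.23 and 3.01.

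**Figure D1:**
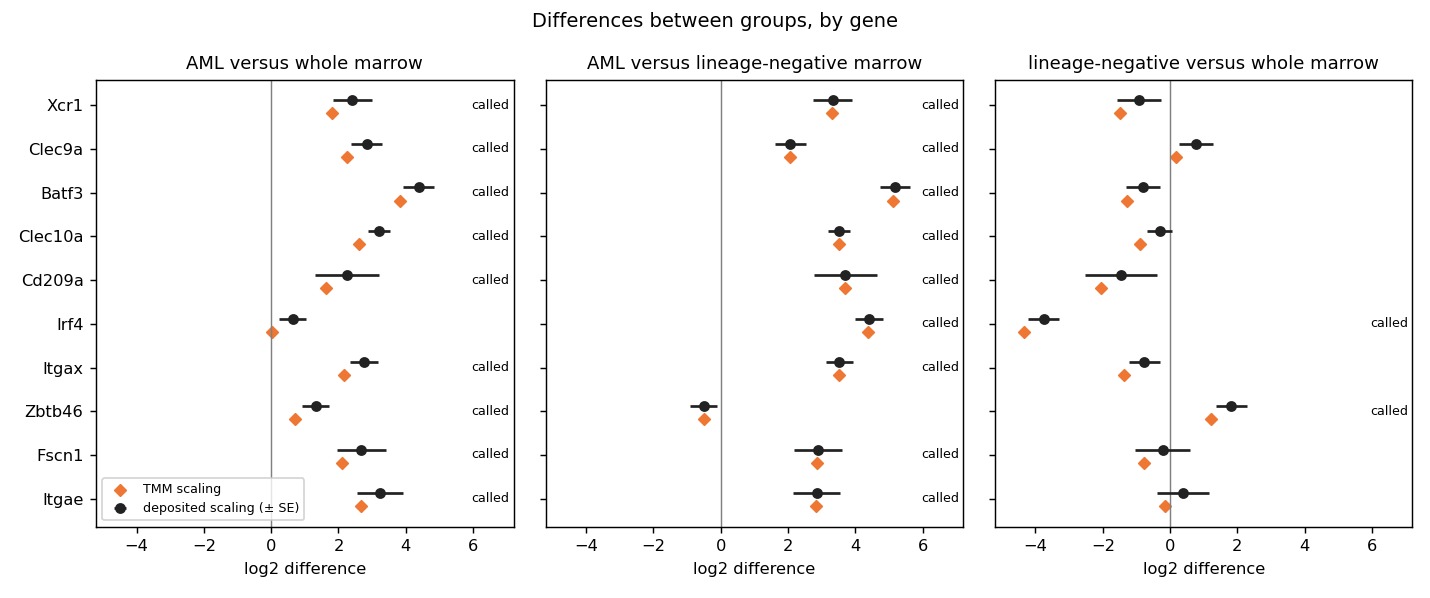
Log2 differences of the 10 genes in the 3 comparisons, with the deposited scaling (black points, bars are the standard error of limma) and with TMM scaling (orange diamonds); "called" marks genes past the threshold with the deposited scaling. The black points lie above 0 for all 10 genes against whole marrow, and Zbtb46 lies below 0 against lineage-negative marrow, at −0.50.

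The 3 type 1 genes were higher in AML than in either normal group. Xcr1 encodes the chemokine receptor that draws type 1 cells to XCL1 from T and natural killer cells. Its lowest, median and highest values in AML were 64.9, 111 and 1230.4. Whole marrow replicates 1 to 4 had 35.0, 18.8, 25.05 and 28.7, and lineage-negative marrow had 9.98, 13.2, 7.93 and 30.02. Every AML library lay above all 8 normal libraries, and the normal groups overlapped. The log2 difference was 2.41 ± 0.59 (standard error, n = 7 and 4) against whole marrow (limma adjusted p = 0.00156) and 3.32 ± 0.59 against lineage-negative marrow (limma adjusted p = 0.000107). AML replicate 3 stood far above the rest, and without it the differences were 1.89 (limma adjusted p = 0.000273) and 2.81. With voom the call against whole marrow was lost (1.79, limma adjusted p = 0.114). The AML mean of Xcr1 went from 266 to 105 when AML replicate 3 was left out. After subtraction of the receptor level its whole marrow mean fell from 26.9 to 15.7.

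Clec9a encodes a lectin receptor that binds actin exposed by dead cells. AML values ran from 113 through a median of 464 to 1022. In whole marrow they were 40.8, 72.0, 46.4 and 54.6, and in lineage-negative marrow 55.4, 92.7, 88.0 and 141. All 7 AML libraries exceeded whole marrow, but AML replicate 6, the lowest, lay below lineage-negative replicate 4. Clec9a was 2.84 ± 0.45 higher on the log2 scale than in whole marrow (limma adjusted p = 3.89e-05) and 2.07 ± 0.45 higher than in lineage-negative marrow (limma adjusted p = 0.000842). Without AML replicate 3 these were 2.60 and 1.83.

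Batf3, a transcription factor of the AP-1 family required for type 1 cells, had the largest difference of the 10 genes in both comparisons with AML. It was close to the detection limit in normal marrow, with 3.59, 9.38, 4.17 and 9.55 in whole marrow and 3.63, 3.53, 3.53 and 1.96 in lineage-negative marrow. These correspond to 4 to 7 and 3 to 4 estimated reads per library. No normal library reached the 10 normalized counts that the filter for testing asks of at least 4 samples. Batf3 was thus tested only through its AML libraries, so its calls and rank are not independent of its high AML values. In AML the lowest, median and highest values were 59.8, 122 and 522, so the lowest AML library exceeded the highest normal library. The log2 difference was 4.38 ± 0.45 against whole marrow (limma adjusted p = 5.99e-07) and 5.18 ± 0.45 against lineage-negative marrow (limma adjusted p = 1.96e-08), on a scale with a pseudocount of 1, and 4.07 and 4.88 without AML replicate 3. After subtraction of the receptor level, the mean in whole marrow fell from 6.67 to 3.17.

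**Figure D2:**
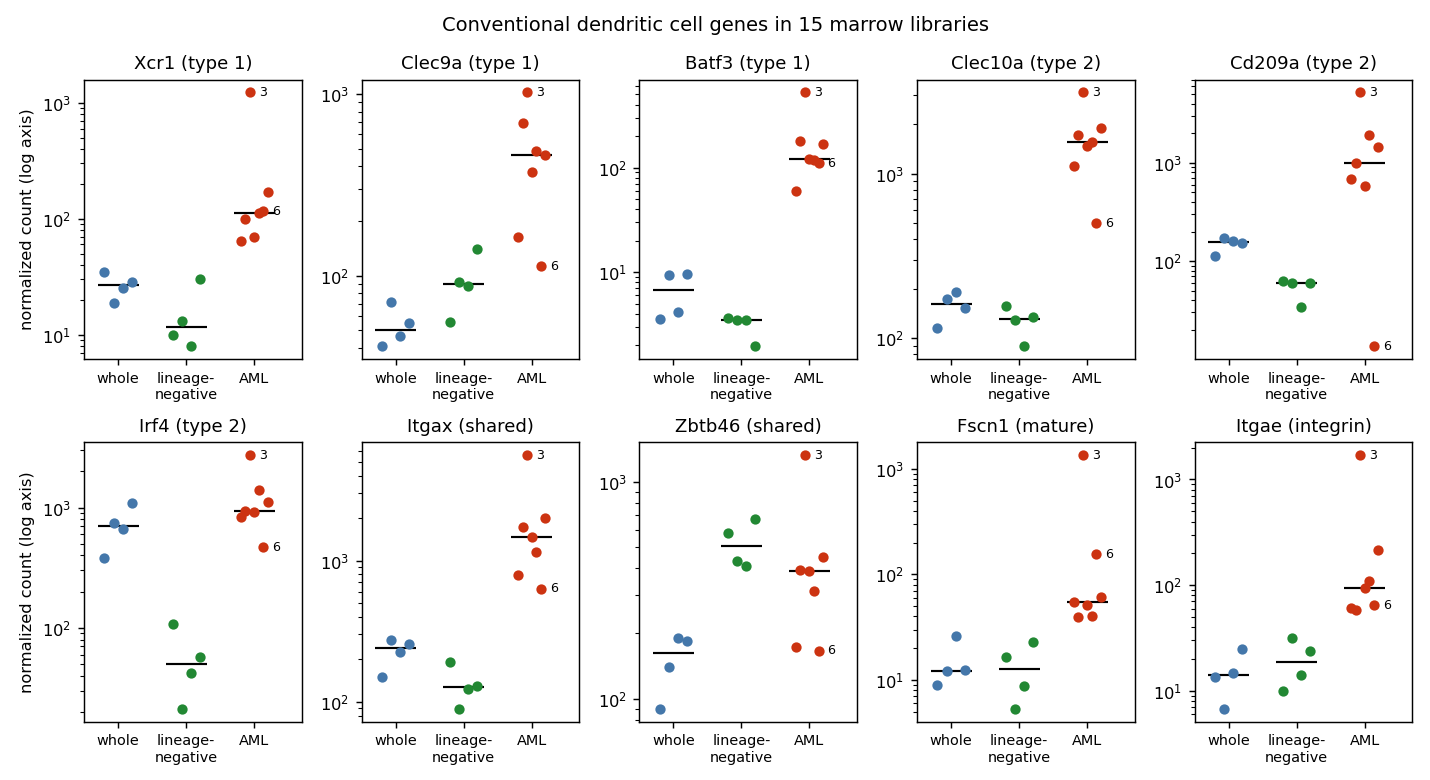
Normalized counts (log axis, a separate scale for each gene) of the 10 genes in whole marrow (blue, 4 libraries), lineage-negative marrow (green, 4) and AML (red, 7), with a bar at each group's median; the numbers mark AML replicates 3 and 6. AML replicate 3 is the top red point in every panel, and in the Cd209a panel replicate 6 lies at 13.6, below all normal libraries.

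The type 2 genes did not share 1 pattern. Clec10a, a galactose-binding lectin receptor of type 2 cells and some macrophages, was higher in AML than in both normal groups. Its AML values were 499 at the lowest, 1563 at the median and 3124 at the highest. Whole marrow had 115, 172, 192 and 152, and lineage-negative marrow had 157, 128, 89.3 and 134. All AML libraries lay above all normal ones, and the normal groups overlapped. The log2 differences were 3.21 ± 0.33 against whole marrow (limma adjusted p = 5.99e-07) and 3.52 ± 0.33 against lineage-negative marrow (limma adjusted p = 5.22e-08). Clec10a varied least over the AML libraries, with a coefficient of variation of 49.5%, and without replicate 3 its mean was 1376 ± 504 (SD, n = 6) and the differences were 3.02 and 3.34.

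Cd209a, a relative of the human lectin DC-SIGN, was high in 6 AML libraries and low in the other. AML replicates 1 to 7 had 691, 999, 5215, 577, 1928, 13.6 and 1441, a 384-fold range. Whole marrow had 114, 170.2, 159 and 154, and lineage-negative marrow 62.6, 59.9, 34.4 and 60.0. AML replicate 6 was thus below every normal library while the other 6 were above every one. The difference was 2.24 ± 0.95 on the log2 scale against whole marrow, with a limma adjusted p of 0.0453, and 3.71 ± 0.95 against lineage-negative marrow, with a limma adjusted p of 0.00322. The call against whole marrow was lost in 16 of 20 alternative analyses, among them TMM scaling (1.64, limma adjusted p = 0.204) and omission of AML replicate 3 (1.76, limma adjusted p = 0.0834). Without AML replicate 6 the difference was 3.17. Against lineage-negative marrow it was 3.23 without AML replicate 3, and the call was lost with voom (limma adjusted p = 0.0601).

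Irf4, the transcription factor of type 2 cells that also acts in B and plasma cells, separated the 2 normal groups. Whole marrow had 383, 741, 665 and 1087, and lineage-negative marrow had 108, 21.2, 42.3 and 57.4. AML values of 466 at the lowest, 930.1 at the median and 2724 at the highest overlapped with whole marrow, where 3 of 7 AML libraries exceeded all 4. The difference of 0.64 ± 0.41 against whole marrow did not pass the test (limma adjusted p = 0.180) and was −0.03 relative to the median of all genes. Against lineage-negative marrow Irf4 was 4.40 ± 0.41 higher (limma adjusted p = 4.42e-08), with every AML library above. Without AML replicate 3 these differences were 0.41 and 4.17.

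Itgax and Zbtb46 mark conventional dendritic cells of both types. Itgax encodes CD11c, an integrin subunit that monocytes and macrophages also carry. In AML it was 634 at the lowest, 1460 at the median and 5575 at the highest. Whole marrow had 149.7, 273, 227 and 256, and lineage-negative marrow had 191, 89.0, 123 and 131. No AML library overlapped with a normal one. The log2 difference was 2.75 ± 0.41 against whole marrow (limma adjusted p = 2.02e-05) and 3.53 ± 0.41 against lineage-negative marrow (limma adjusted p = 7.71e-07), and 2.43 and 3.21 without AML replicate 3.

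Zbtb46, a zinc finger transcription factor of committed conventional dendritic cells and of some erythroid progenitors, was the 1 gene of the 10 with its highest median in lineage-negative marrow. That group had 583, 432, 408 and 674, whole marrow had 89.8, 141, 189.9 and 184, and AML had 167, 389.5 and 1324 as its lowest, median and highest values. AML replicates 1 and 6 fell within the range of whole marrow, and 5 AML libraries lay below all lineage-negative libraries. The difference against whole marrow was 1.32 ± 0.40 (limma adjusted p = 0.00815). It was 0.72 with TMM scaling (limma adjusted p = 0.173), and 1.09 without whole marrow replicate 1 (limma adjusted p = 0.0520), and in both cases, as with voom (limma adjusted p = 0.272), Zbtb46 was no longer called. Against lineage-negative marrow the difference was −0.50 ± 0.40 (limma adjusted p = 0.335). Without AML replicate 3 the differences were 1.01 (limma adjusted p = 0.00717) and −0.81 (limma adjusted p = 0.0355).

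Across the 7 AML libraries Zbtb46 and Itgax had the same rank order (Spearman rho = 1, exact permutation p = 0.000397). Pearson r of the log2 values was 0.99 (exact permutation p = 0.000198, Benjamini-Hochberg adjusted over 7 pairs 0.00139), and 0.96 without the 2 libraries farthest from the median of Itgax, replicates 3 and 6. Of the 8 genes of the set with a RefSeq promoter entry, Itgax and Zbtb46 also were the 2 whose 250 bases before the start site of that entry held an AP-1 motif. The motif is TGANTCA, which reads the same on both strands. This motif was in 6.87% of 27025 mouse promoter windows of that length. The 2 windows are shown for that shared rank order and the window of Batf3, which encodes an AP-1 family protein, for its large difference. All are from RefSeq on GRCm38.p6, 5′ to 3′ on the strand of the gene, with the motif in capitals. Itgax is at chr7:128129300-128129549 on the plus strand, Zbtb46 at chr2:181424389-181424638 on the minus strand and Batf3 at chr1:191098164-191098413 on the plus strand.
Itgax: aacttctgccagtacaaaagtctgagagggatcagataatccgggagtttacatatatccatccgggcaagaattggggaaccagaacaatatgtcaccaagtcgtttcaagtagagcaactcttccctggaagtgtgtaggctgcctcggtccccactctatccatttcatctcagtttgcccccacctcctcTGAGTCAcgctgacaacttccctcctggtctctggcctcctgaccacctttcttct
Zbtb46: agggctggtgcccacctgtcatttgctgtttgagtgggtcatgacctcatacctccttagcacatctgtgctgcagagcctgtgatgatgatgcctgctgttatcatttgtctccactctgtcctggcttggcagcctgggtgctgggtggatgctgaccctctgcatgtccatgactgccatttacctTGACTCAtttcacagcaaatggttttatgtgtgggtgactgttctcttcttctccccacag
Batf3: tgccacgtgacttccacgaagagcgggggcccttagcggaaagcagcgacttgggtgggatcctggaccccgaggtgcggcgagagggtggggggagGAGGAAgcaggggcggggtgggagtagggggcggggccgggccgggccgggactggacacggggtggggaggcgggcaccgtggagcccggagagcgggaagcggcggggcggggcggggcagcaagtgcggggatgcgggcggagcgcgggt
The capitals in the Batf3 window mark GAGGAA, the core bound by PU.1, a myeloid transcription factor, which on either strand was in 23.1% of the windows. It was also found before Irf4. An IRF motif, GAAA followed after any 2 bases by GAAA again, on either strand, was in 3.04% of the windows and in none of the 8. A match describes letters in the window and not a bound site, and whether the motif bears on the shared rank order was not tested. The Zbtb46 window ends in a run of mostly C and T and then cag, as introns commonly do. It may therefore lie inside the gene and not before its first exon, which was not tested.

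Fscn1 encodes fascin, an actin-bundling protein that rises as dendritic cells mature. AML replicates 1 to 7 had 54.7, 39.4, 1351, 51.5, 40.6, 155 and 61.5. Whole marrow had 8.98, 12.1, 26.1 and 12.3, and lineage-negative marrow had 16.3, 5.29, 8.81 and 22.8. All AML libraries were above all normal ones, with 5 of the 7 between 39.4 and 61.5. The log2 difference was 2.68 ± 0.72 against whole marrow (limma adjusted p = 0.00341) and 2.90 ± 0.72 against lineage-negative marrow (limma adjusted p = 0.00264). The AML mean was 251 with replicate 3 and 67.2 ± 44.1 (SD, n = 6) without it, and the difference against whole marrow was then 2.03 (limma adjusted p = 0.000720) and that against lineage-negative marrow 2.25. The call against whole marrow was lost with voom (1.98, limma adjusted p = 0.185). Subtraction of the receptor level lowered the whole marrow mean of Fscn1 from 14.9 to 7.69.

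Itgae encodes CD103, the integrin alpha E subunit found on type 1 cells and on T cells of epithelia. Its AML values were 61.1, 58.5, 1701, 92.9, 110.4, 64.2 and 216 in replicates 1 to 7. Whole marrow had 13.5, 6.70, 14.6 and 24.6, and lineage-negative marrow had 9.98, 31.7, 14.1 and 23.5. AML lay above normal marrow in every library. The log2 difference was 3.24 ± 0.69 against whole marrow (limma adjusted p = 0.000489) and 2.85 ± 0.69 against lineage-negative marrow (limma adjusted p = 0.00199), and 2.64 and 2.24 without replicate 3. Against whole marrow the call was lost with voom (2.66, limma adjusted p = 0.0902). After subtraction of the receptor level the whole marrow mean of Itgae fell from 14.8 to 4.98.

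In all, 6 genes (Itgax, Clec10a, Xcr1, Batf3, Fscn1 and Itgae) had every AML library above all 8 normal libraries, as did 8.56% of the genes tested. Against whole marrow alone 7 of the 10 genes had no overlap, beside 35.8% of all genes, and against lineage-negative marrow 7, beside 17%. The 3 type 1 genes passed the test in both comparisons with AML with the deposited scaling and with TMM scaling, though Xcr1 did not with voom against whole marrow. Of these 3, Batf3 was kept for testing only through its AML values. Of the type 2 genes, 2 passed against whole marrow with the deposited scaling and 1, Clec10a, with TMM scaling and with voom. The difference between the types was not tested, since genes are not replicates.

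AML replicate 3 exceeded the median of the other 6 AML libraries 25.4-fold for Fscn1, 21.7-fold for Itgae, 11.7-fold for Xcr1, 6.17-fold for Cd209a, 4.36-fold for Batf3, 4.27-fold for Itgax and 3.77-fold for Zbtb46. For Irf4, Clec9a and Clec10a the ratios were smaller, at 2.95, 2.44 and 2.06. This library was the highest AML library for 14.9% of all genes tested. AML replicate 6 was the lowest for 6 of the 10 genes, including all 3 type 2 genes, but for Fscn1 it was the second highest and for Xcr1 it had 116, above the AML median. Replicate 6 also had the lowest estimated depth of AML, 20.3 M reads, the highest receptor level and the lowest share of genes at 0, 23.6% against 29.1% to 41.4%, and their part in its values was not tested. AML replicate 7 ranked second for 5 genes.

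**Figure D3:**
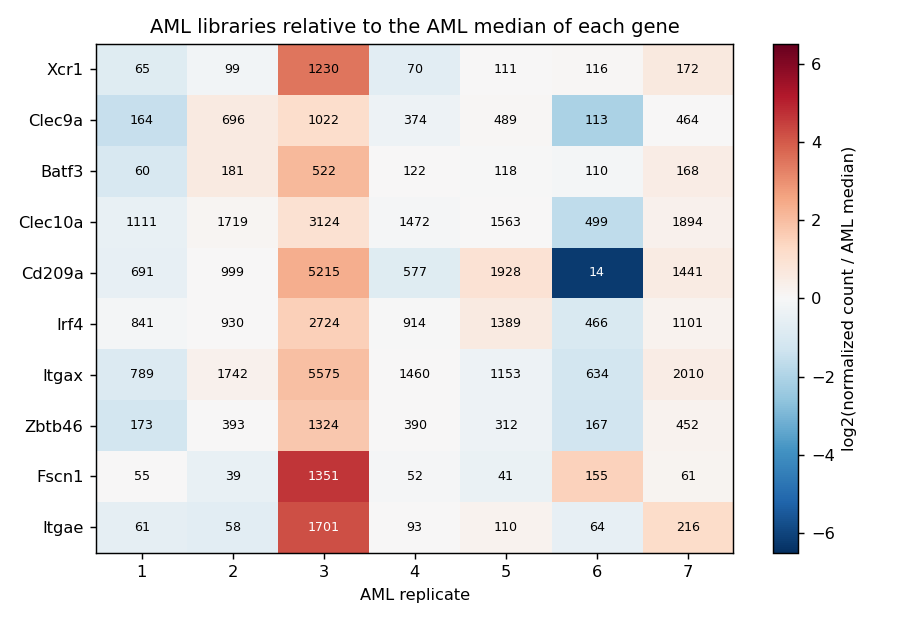
Normalized counts of the 10 genes (rows) in AML replicates 1 to 7 (columns), printed in each cell and coloured by log2 of the count over the gene's AML median. Replicate 3 is red in every row, most in Fscn1 and Itgae, and replicate 6 has the darkest blue cell, Cd209a at 14.

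Within the types, correlations over the 7 AML libraries were read with and without the 2 libraries farthest from the median of the first gene, over 7 pairs adjusted together. For type 1, Xcr1 and Batf3 had r = 0.91 (exact permutation p = 0.0129, adjusted 0.0192) and rho = 0.57 (exact permutation p = 0.200), and without replicates 3 and 1 r was 0.35 and rho −0.20, so the relation rests on those libraries. Clec9a and Batf3 had r = 0.80 (exact permutation p = 0.0248, adjusted 0.0289) and rho = 0.86 (exact permutation p = 0.0238), with r = 0.91 and rho = 0.70 without replicates 6 and 1, and r was 0.720 without replicate 3 (exact permutation p adjusted over the pairs 0.119). Over the omission of each AML library that adjusted p reached 0.180, so the call depends on single libraries. Xcr1 and Clec9a had r = 0.60 (exact permutation p = 0.159) and rho = 0.43 (exact permutation p = 0.354), and r was −0.03 without replicates 3 and 1. In the plot of Clec9a against Xcr1, replicate 6 had more Xcr1 than replicate 2, and less Clec9a.

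For type 2, Clec10a and Cd209a had r = 0.96 (exact permutation p = 0.00357, adjusted 0.0125) and rho = 0.86 (exact permutation p = 0.0238), but r = 0.57 and rho = 0.60 without replicates 6 and 3. Clec10a and Irf4 had r = 0.92 (exact permutation p = 0.0131, adjusted 0.0192) and rho = 0.89 (exact permutation p = 0.0123), but r = 0.48 and rho = 0.70 without the same libraries. Pearson r of both was thus lower without replicates 3 and 6, with 5 libraries left. Cd209a and Irf4 had r = 0.89 (exact permutation p = 0.0137, adjusted 0.0192) and rho = 0.96 (exact permutation p = 0.00278), and r = 0.91 and rho = 0.90 without replicates 6 and 3.

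**Figure D4:**
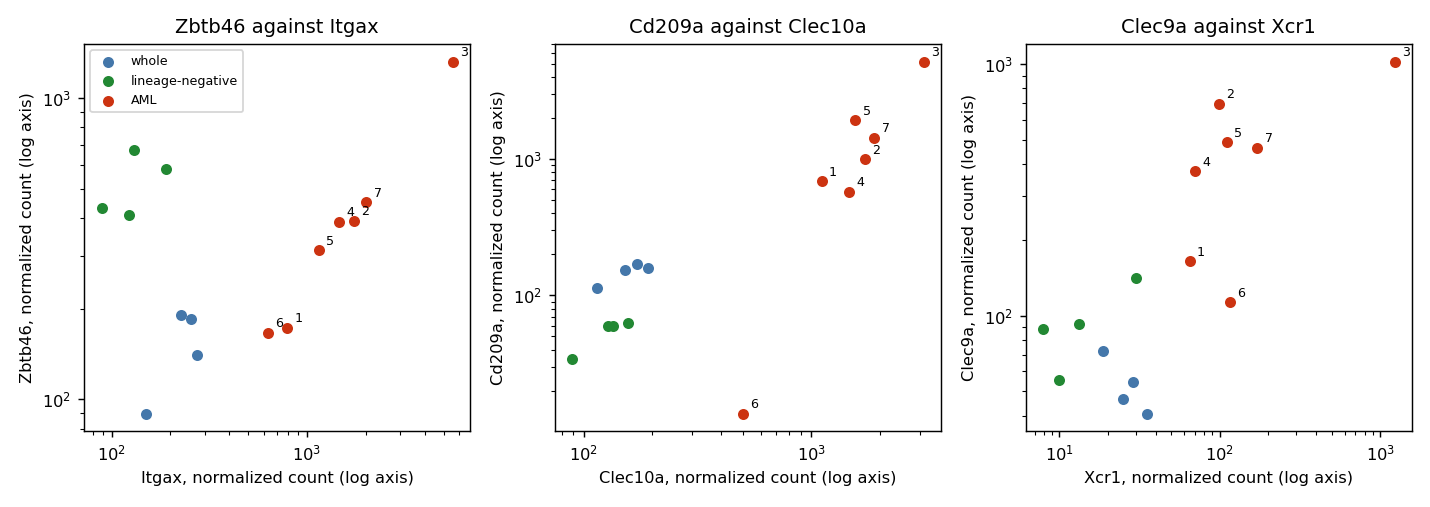
Normalized counts (log axes) of Zbtb46 against Itgax, Cd209a against Clec10a and Clec9a against Xcr1 in 15 libraries, coloured by group, with AML replicates numbered. In AML Zbtb46 climbs with Itgax from replicate 6 to replicate 3, while the lineage-negative libraries have high Zbtb46 (408 to 674) at low Itgax (89.0 to 191).

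The 2 normal groups differed in 2 of the 10 genes with the deposited scaling. Zbtb46 was 1.82 ± 0.46 higher in lineage-negative than in whole marrow on the log2 scale (limma adjusted p = 0.00180), with all 4 libraries above, as for 41.1% of all genes, and Irf4 was 3.76 ± 0.46 lower (log2 difference −3.76, limma adjusted p = 1.65e-06), with all 4 below, as for 16.6% of all genes. Over all genes 33.1% were called higher and 17.2% lower in this comparison. Cd209a was lower in all 4 lineage-negative libraries than in any whole marrow library, with a log2 difference of −1.47 ± 1.07 that did not pass the test (limma adjusted p = 0.238). With TMM scaling Itgax (−1.37, limma adjusted p = 0.0196) and Batf3 (−1.29, limma adjusted p = 0.0375) were called lower too, where 23.3% of all genes were. The remaining genes, Clec10a, Clec9a, Xcr1, Fscn1 and Itgae, had differences between −0.92 and 0.76 and were not called.

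Levels between genes were compared per kilobase of exon. The AML medians per kilobase were 631 for Cd209a, 539 for Clec10a, 304 for Itgax, 189.7 for Irf4, 141 for Clec9a, 76.2 for Batf3, 45.8 for Zbtb46, 25.01 for Xcr1, 20.3 for Itgae and 18.2 for Fscn1. The ranges of neighbours in this order overlapped over the AML libraries. In whole marrow the order was led by Irf4 with a median of 143 per kilobase, and in lineage-negative marrow by Zbtb46 with 59.6 per kilobase. Batf3 had 4.24 and 2.21 per kilobase in those groups.

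The genes most like each member were taken as the 3 with the highest r of log2 values over the 15 libraries, a description in which the group differences take part. For Xcr1 they were Gcsam (0.96), Havcr2 (0.96) and Tlr3 (0.96), and for Itgae they were Plxdc2 (0.94), Xcr1 (0.93) and Gcsam (0.93). For Batf3 they were Kbtbd11 (0.98), Ifi205 (0.98) and Pld2 (0.98), and for Clec9a Slc9a9 (0.96), Gpr183 (0.95) and Mycl (0.95). Ckb was near both Itgax (0.99) and Clec10a (0.98), followed by Tppp3 for Itgax and accompanied by Fcgrt and Dusp3 for Clec10a. Cd209a lay nearest to Cx3cr1 (0.95), a chemokine receptor gene of monocytes, then Kif5a and Ust. Over the AML libraries alone Cd209a and Cx3cr1 had r = 0.98, and both were lowest in replicate 6, Cx3cr1 at 247 against 5436 in replicate 3. Zbtb46 was nearest to Tbc1d4, Lrba and Fchsd2, Fscn1 to Anpep, Bcl2a1d and Hfe, and Irf4 to Gm44401, Rap1gap2 and Plbd1.

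Most of the further genes of type 1 cells were higher in AML. Of 13 such genes 10 were called higher than in whole marrow and 2 lower (7 and 3 with TMM scaling), beside 27.3% and 11.3% of all genes (6.01% and 15.1%), with a median log2 difference of 1.83 beside 0.67 for all genes. Against lineage-negative marrow 10 were called higher and none lower, beside 17.7% and 12.5% of all genes, with a median of 1.83 beside 0.02. Ifi205, an interferon-inducible gene, had a mean of 1129 ± 600 (SD, n = 7) in AML and 70.4 ± 31.1 (SD, n = 4) in whole marrow. Tlr3, the receptor for double-stranded RNA, had 235 ± 301 in AML and 21.3 ± 4.96 in whole marrow, and 123 in AML without replicate 3. Cadm1, an adhesion molecule, had 356 ± 305 in AML and 6.62 ± 2.67 in lineage-negative marrow. The 2 called lower than in whole marrow were Cd36, a scavenger receptor, and Cd24a, and both are also transcribed in erythroid cells. Without AML replicate 3 the counts were 10 and 2 against whole marrow and 10 and 0 against lineage-negative marrow.

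Further type 2 genes were more mixed. Of 12 tested, 7 were called higher than in whole marrow and 1, Dtx1, lower, beside 27.3% and 11.3% of all genes, with a median of 1.25 beside 0.67. With TMM scaling 3 were called higher and 2 lower, beside 6.01% and 15.1% of all genes, and without AML replicate 3, 7 higher and 2 lower. Klf4, a transcription factor of monocytes and type 2 cells, had 3070.2 ± 855 in AML and 607 ± 126 in whole marrow. Tnfrsf11a, the receptor RANK, had 241 ± 65.9 and 62.9 ± 3.54. Against lineage-negative marrow 9 were called higher and Esam, an adhesion molecule, lower, beside 17.7% and 12.5% of all genes. Without AML replicate 3 these counts were 8 and 1. The integrin gene Itgam, at 16483 ± 5499 in AML and 715 ± 383 in lineage-negative marrow, is a gene of neutrophils and monocytes too. Mgl2, a lectin gene related to Clec10a and named after its values were seen, had 2531 in AML replicate 3 and 144 to 385 in the other AML libraries, near the 92.4 to 211 of whole marrow.

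Genes for the development of conventional dendritic cells were called higher than in whole marrow in 16 of 19 cases and lower in none, beside 27.3% and 11.3% of all genes. The median was 1.26 beside 0.67 for all genes, 0.59 relative to it, and with TMM scaling 6 were called higher, beside 6.01% of all genes. Against lineage-negative marrow 11 were called higher and none lower, beside 17.7% and 12.5% of all genes. Without AML replicate 3 the counts called higher were again 16 and 11. Flt3, the receptor for FLT3 ligand, had 2975 ± 1219 in AML, 273 ± 71.4 in whole marrow and 1728 ± 290 in lineage-negative marrow. Irf8, the transcription factor of type 1 cells and monocytes, had 14597 ± 4591 in AML and 2784 ± 526 in whole marrow. Id2, a repressor needed for type 1 cells, had 2174 ± 576 in AML and 159 ± 40.6 in lineage-negative marrow. AML replicate 3 was the highest AML library for 4 of these 19 genes, against 10 of the 13 further type 1 genes and 6 of the 12 further type 2 genes. This lead was not particular to dendritic cell genes, since it held for 10 of 11 B and plasma cell markers, treated below. Of the 19, 6 are in another list.

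Genes of mature dendritic cells and MHC class II genes were mostly highest in AML replicate 3. Over all genes, 27.3% were called higher than in whole marrow (6.01% with TMM scaling) and 17.7% higher than in lineage-negative marrow. Of 19 maturation genes tested 12 were called higher than in whole marrow (7 with TMM scaling) and 13 higher than in lineage-negative marrow, none lower, with medians of 1.52 and 2.88, and replicate 3 was highest for 14. Without it 11 and 13 were called higher. Ccr7 and Ccl22, a chemokine receptor and a chemokine of mature cells named after their values were seen, had 759.8 and 235 in replicate 3 and 47.1 to 128 and 1.23 to 33.4 in the other AML libraries. Whole marrow had 63.7 to 194 for Ccr7 and 9.38 to 20.6 for Ccl22, so outside replicate 3 the AML values overlapped with whole marrow for both. Of 9 MHC class II genes 8 were called higher than in either normal group, with medians of 2.80 and 5.86, and replicate 3 was highest for all 9. Without it 8 and 7 were called. H2-Aa had 85245 there, 9470.1 to 24117 in the other AML libraries, 1327 to 2991 in whole marrow and 49.4 to 263 in lineage-negative marrow.

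Markers of other cell types also differed between the groups, in either direction, and their part in the results was not tested. Over all genes 27.3% were called higher than in whole marrow and 11.3% lower (6.01% and 15.1% with TMM scaling). Against lineage-negative marrow 17.7% of all genes were called higher and 12.5% lower. Of 12 monocyte markers 11 were called higher than in whole marrow (7 with TMM scaling) and 12 higher than in lineage-negative marrow, and their summed level was 234506 to 480737 in AML, 81726 to 200720 in whole marrow and 22605 to 38027 in lineage-negative marrow. Most of the sum in AML and in whole marrow was Lyz2, at 146073 to 334206 and 63342 to 161769, so these sums mainly follow that gene. Lyz2 and Fcgr1, a lysozyme gene and an Fc receptor gene of this list, had 211607 ± 61364 and 1090 ± 717 in AML and 3833 ± 1609 and 18.9 ± 9.07 in lineage-negative marrow. Replicate 3 did not lead this list: its sum of 278638, mostly Lyz2 at 195371, was below the AML median of 336312. It was highest for 1 of 12, Cx3cr1. It was the lowest AML library for Ly6c2 (10376, others 23364 to 38422), F13a1 (10768, others 18260 to 41608) and Fcgr1 (156, others 750 to 2458). These were named after their values were seen. Its Fcgr1 lay within the 78.1 to 225 of whole marrow. For the remaining markers it lay within the range of the other AML libraries. Of 12 markers of plasmacytoid dendritic cells 5 were called higher than in whole marrow (2, and 1 lower, with TMM scaling) and 9 higher than in lineage-negative marrow. Replicate 3 was highest for none of them, with a summed level of 7839 beside an AML median of 12144, and replicate 6, with 4097, was lowest for 10 of 12. Without replicate 3 the counts of both lists were the same. No marker of these lists was at 0 in all libraries of a group.

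B and T cell markers differed between AML libraries. Of 11 B and plasma cell markers 7 were called lower and 1 higher than in whole marrow, beside 11.3% and 27.3% of all genes. But replicate 3 had the highest sum of AML, 18765 against 3672 in replicate 6, and 6694 to 12844 in whole marrow. Against lineage-negative marrow 9 of the 11 were called higher, where 17.7% of all genes were called higher and 12.5% lower. Of 12 T and natural killer cell markers 6 were called higher than in whole marrow with the deposited scaling, where 27.3% of all genes were. With TMM scaling none was called higher and 2 lower, where 6.01% and 15.1% of all genes were. Against lineage-negative marrow 9 were called higher. Without replicate 3, 4 were called higher than in whole marrow and again 9 higher than in lineage-negative marrow. The T and natural killer cell markers summed to 5199.7 in replicate 3 and 6448 in replicate 6, with an AML median of 1653, and to 797 to 1273 in whole marrow. Replicate 3 was highest for 4 of these 12. Macrophage markers were called higher for 1 and lower for 3 of 11 against whole marrow, with C1qb at 481 ± 409 in AML and 334 ± 123 in whole marrow, and higher for 10 of 11 against lineage-negative marrow. None of 11 neutrophil markers was called against whole marrow, and 9 were called higher and 1 lower against lineage-negative marrow. All 8 erythroid markers were called lower than in whole marrow, and 3 lower than in lineage-negative marrow (8 and 4 without replicate 3). Replicate 3 had the highest erythroid sum of AML, 29897 beside a median of 3771, and was highest for 6 of the 8. It was highest for 4 of the 11 macrophage markers and 0 of the 11 neutrophil markers. Without it the counts of B and plasma cell, macrophage and neutrophil markers were the same.

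**Figure D5:**
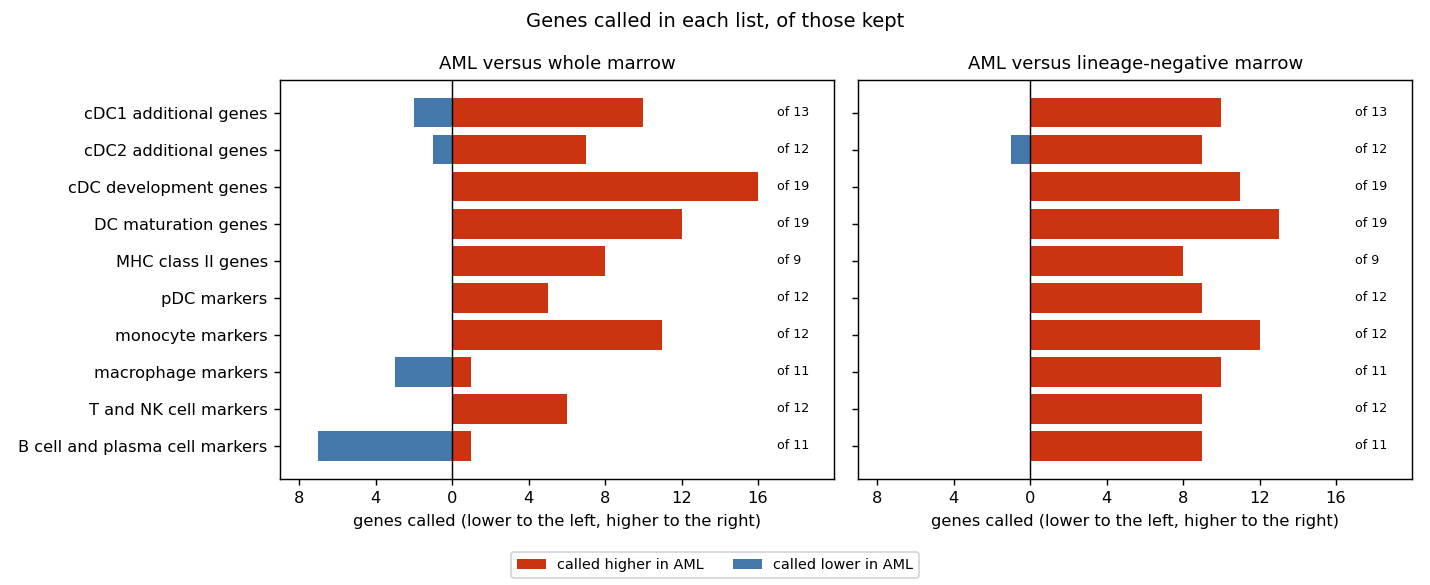
Number of genes called higher (red, right of 0) or lower (blue, left of 0) in AML than in whole marrow and than in lineage-negative marrow, for lists of dendritic cell genes and of markers of other cells; the number at the right is the genes tested. Against whole marrow the development list has 16 of 19 called higher and the B and plasma cell list 7 of 11 called lower. The neutrophil and erythroid lists are not drawn.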

How the data were processed

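Total RNA was extracted with TRIzol and libraries followed the TruSeq Stranded Total RNA kit, per the labels' protocols. The submitters' processing notes name STAR, Partek, DESeq2 and mm10, without versions. The deposited signal values are normalized counts that the authors scaled with DESeq2, per the submitters' processing notes, and the name of the table gives the type as poscounts. The values read as estimated reads per gene over 1 factor per library. Counting by strand is not stated, so reads of overlapping or antisense genes may be mixed. Between 82.2% and 87.1% of low values were whole multiples of the value of 1 read (tolerance 0.02), so whole reads were not recovered, count models were not used, and depth is an estimate. Start positions in the table mostly differ from GRCm38 (861 of 38066 shared identifiers have the same start), so promoter positions are those of RefSeq.

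Genes with at least 10 normalized counts in at least 4 samples were kept (18941, all 10 members among them). Batf3 met this only through its AML libraries. Log2 values with a pseudocount of 1 entered limma 3.58.1 in R 4.3.3 as 3 group means, with a mean-variance trend and two-sided tests, adjusted by Benjamini-Hochberg over the genes kept. In simulated data, 75 of 100 genes changed by 1.5 on the log2 scale and 98 of 100 changed by 3 were called, and 10 unchanged genes. The simulation had independent normal noise and far fewer changed genes than these data, so its rates do not carry over to them. Folds on this scale understate the change of low genes. Correlations used exact two-sided permutation tests (5040 orders). Levels per kilobase used GENCODE exon lengths. All members are named, and of each list the called genes with the largest and smallest 2 differences at a mean of at least 20; the text gives a selection of these. Some results under these rules are not reported here. The members and lists were chosen with earlier results of these data known. Floors of 3 reads cover counting error only. Alternatives were pseudocounts of 0.1 and 5, no filter or a mean of at least 50, TMM, subtraction of the receptor level, fits of 2 groups, a replicate block, leaving out each library and, added after seeing the data, limma's voom on estimated reads.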

Additional observations from a re-analysis of the deposited data

Results flagged for a closer look

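In 10 of 30 gene and group combinations, 1 library lay farther from its group than Dixon's 95% limit. The limit was applied to normalized counts without logarithm. Its rate of about 1 in 20 groups by chance holds for normally distributed values, so that rate is no reference here. On a log2 scale, where the limit was not applied, high libraries stand out less and low ones more, such as AML replicate 6 for Cd209a (13.6, next 577). The genes share libraries, so the 10 combinations are not independent events. In 8 of them the library was AML replicate 3, which was the highest for Itgax (5575, next 2010.5), Xcr1 (1230.4, next 172), Batf3 (522, next 181), Zbtb46 (1324, next 452), Cd209a (5215, next 1928), Fscn1 (1351, next 155), Irf4 (2724, next 1389) and Itgae (1701, next 216). In lineage-negative marrow, replicate 4 was low for Batf3 (1.96, next 3.53) and replicate 3 for Cd209a (34.4, next 59.9). The Batf3 value corresponds to 3 estimated reads.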

How the results depend on the processing

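Against lineage-negative marrow 9 members were called higher with every setting but voom, which gave 8 and lost Cd209a. Against whole marrow the other settings gave 7 to 9 and voom 4 (Itgax, Clec10a, Clec9a and Batf3); leaving out each library gave 7 to 9, with 7 without whole marrow replicate 1, which lost Zbtb46 and Cd209a. For lineage-negative against whole marrow, members called higher were 2 after subtraction of the receptor level (Itgae added) and 0 with voom, and members called lower were 3 with TMM and 2 in the fit of 2 groups alone. With the replicate block 2 were called lower, Cd209a added (limma adjusted p = 0.0246), and the counts against AML were 9 and 9. Correlations of deviations were −0.288 to 0.171 between same-numbered samples and −0.241 to 0.255 between the others. They cannot show whether same-numbered lineage-negative and whole marrow samples came from the same animals, which the labels do not say. In that comparison some uncalled differences changed sign: Batf3 was 0.41 and Fscn1 1.15 after the subtraction, Fscn1 0.07 without whole marrow replicate 3 and 0.12 without lineage-negative replicate 2 (range over omitted libraries −0.52 to 0.12), and Itgae −0.17 with TMM and −0.16 with voom. When each AML library was left out, r ranged from 0.652 to 0.954 for Xcr1 and Batf3, 0.720 to 0.927 for Clec9a and Batf3, 0.874 to 0.975 for Clec10a and Cd209a and 0.881 to 0.945 for Clec10a and Irf4, and each lost its call in at least 1 case (highest adjusted exact permutation p 0.209, 0.180, 0.0583 and 0.0700). Over all genes, calls higher than whole marrow went from 5167 to 1138 with TMM, 983 with voom and 3179 without whole marrow replicate 1. Calls lower than whole marrow went from 2132 to 11289 without a filter, 460 at a mean of at least 50 and 1176 after the subtraction. Of 570 values of single genes under an alternative, 535 had the direction and call of the main analysis. The cause of these changes was not tested. Depth limits Batf3 in normal marrow, at 3 to 7 reads.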
